A study of Mus musculus with 7 samples.

Results

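Fasn, Acaca, Acly, Scd1, Srebf1, Elovl6, Me1, Thrsp, Pnpla3 and Dgat2 are 10 genes of fatty acid and triglyceride synthesis, chosen by function from 22359 protein-coding genes. CTCF and cohesin binding around them was taken from chromatin immunoprecipitation with sequencing (ChIP-seq) of whole livers of untreated male mice of the outbred strain Crl:CD1(ICR), 8 weeks old, with 4 CTCF libraries and 3 libraries for Rad21, a subunit of cohesin. Each gene was given a window made of its mm9 span and 50 kb on either side. The 10 windows do not overlap, are 105 to 372 kb long and cover 1655 kb in all. They held 156 of the 76683 CTCF peaks, 145 of the 67369 Rad21 peaks and 95 of the 52436 CTCF sites that the authors had sorted into classes. The libraries of each factor were pooled before peaks were called, so no spread between mice can be given and no comparison was tested. The values describe these pooled livers, and a site bound in some of the cells and a site bound weakly in all of them cannot be told apart. The lists hold no expression values, so the tissue could not be checked against its marker genes.

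CTCF is a DNA-binding protein with a motif that reads differently on its 2 strands, and cohesin is a ring-shaped complex that extrudes chromatin loops until it meets CTCF bound in the blocking orientation. Sites with both proteins are called CAC (cohesin-and-CTCF) sites, and they can anchor topologically associating domains (TADs) or smaller loops inside them. Cohesin peaks without CTCF are called CNC (cohesin-non-CTCF) peaks and are known to lie at active enhancers and promoters, often beside liver-enriched transcription factors. The liver turns surplus carbohydrate into fat. Acly releases acetyl-CoA from citrate, Me1 supplies NADPH, Acaca makes malonyl-CoA and Fasn assembles palmitate, which Elovl6 lengthens and Scd1 desaturates. Dgat2 completes triglycerides, Pnpla3 acts on lipid droplets, and Srebf1 (the SREBP-1 transcription factors) and Thrsp (a lipogenic nuclear protein) act in control of the pathway.

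The CTCF motif was found at 12 of the 13 intra-TAD anchors and at all 3 TAD anchors of the windows, against 95.2% and 92.8% of all such anchors. Anchors were classed as such only where a CTCF motif was present, so these shares follow from the definition of the classes. Over all CTCF peaks of the windows the share was 51.9% (44.1 to 59.6%), against 62.6% of the whole list. Its 19 bp form, learnt from 1000 strong anchors outside these windows, has the consensus NNGCCNNCAGGGGGCGCNN. The sites shown here are anchors that the results below turn on, read 5′ to 3′ on the strand of the motif from build mm9 (NCBIM37), with the match in capitals and 5 bases of flank in lower case.
Scd1, upstream anchor, chr19:44493687-44493705, - strand: cggtaTGGCCACCAGGTGGCAGCAggtcc
Scd1, nearer downstream anchor, chr19:44447642-44447660, + strand: ttcatGTACCACAAGGGGGCGCCTatgat
Scd1, farther downstream anchor, chr19:44438188-44438206, + strand: ccacgTGTCCTGCAGGGGGCAGCAcgtcc
Fasn, farther downstream anchor, chr11:120637588-120637606, - strand: gcataTAGACAGCAGGGGGCGTTGcagca
Fasn, nearer downstream anchor, chr11:120661491-120661509, - strand: ggaagGCTCCACTAGGGGGCAGACcaacc
Dgat2, downstream intra-TAD anchor, chr7:106299981-106299999, - strand: agccaCAGCCACAAGAGGGCGCCGagaat
Acaca, first anchor at the internal starts, chr11:83992932-83992950, + strand: gctctCTGCCGGGAGGTGGAGCCGttggg
Acaca, second anchor at the internal starts, chr11:83993479-83993497, + strand: aggggCAGCCGGCAGGGGGCGGCCtccca
Of the 60 sites in the windows that had both a match and a strand given by the authors, 57 had the same strand in both, against 96.9% of all such sites.

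Peaks of both factors were dense around the 10 genes, with medians above the upper quartile of all protein-coding genes for CTCF, co-bound and CNC peaks. Below the median of all genes lay Acaca for co-bound peaks, at 3.49 per 100 kb, and Acly and Thrsp for CNC peaks, of which they had none. The 10 windows held a median of 10.2 CTCF peaks per 100 kb, with a range from 6.72 at Acaca to 15.5 at Dgat2, against a median of 5.58 and an upper quartile of 9.17 over all protein-coding genes. Co-bound Rad21 peaks, those that share at least 1 bp with a CTCF peak, had a median of 7.09 per 100 kb against a median of 3.82 and an upper quartile of 6.52. CNC peaks had a median of 1.81 per 100 kb against a median of 0.216 and an upper quartile of 1.62. The other 36 genes of lipid synthesis, examined in the same way, had medians of 10 CTCF peaks, 7.66 co-bound and 1.81 CNC peaks per 100 kb, values near those of the 10 genes.

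**Figure D1:**
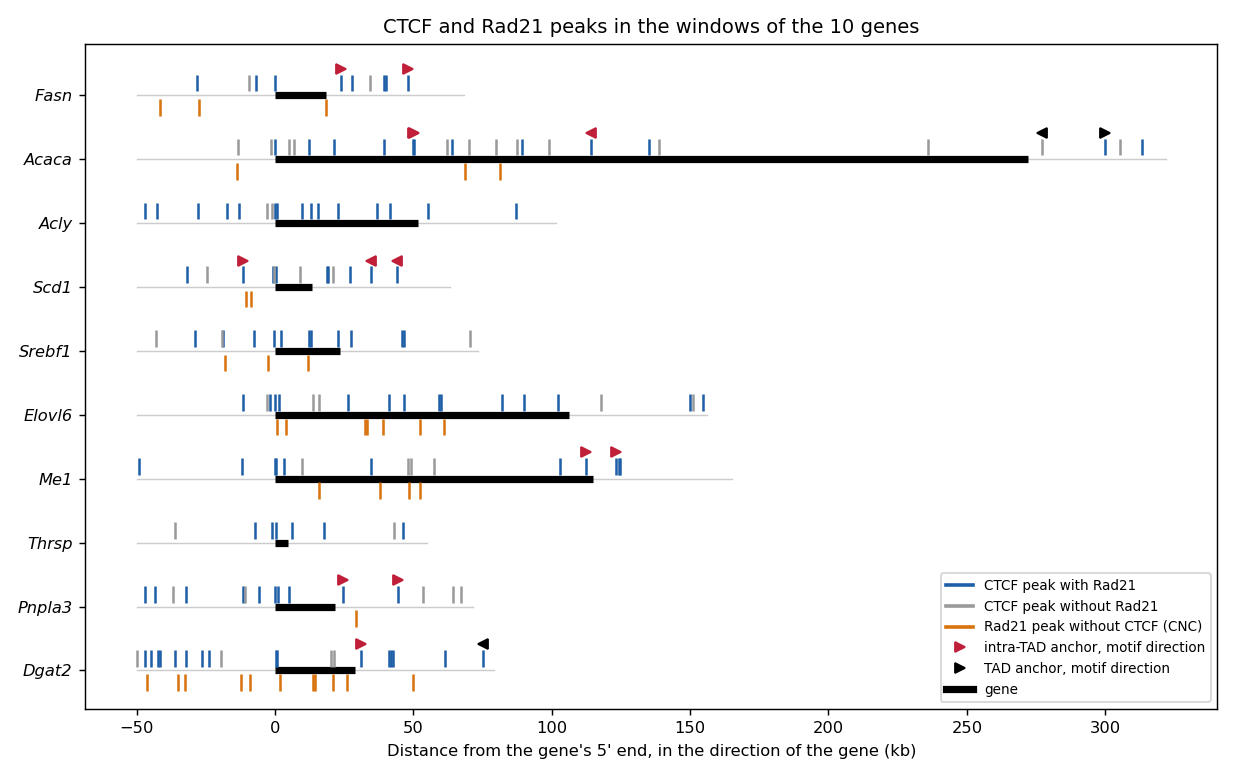
CTCF and Rad21 peaks in the 10 windows, by distance from the 5′ end in the direction of the gene (kb), with the gene as a thick bar. Ticks above the line are CTCF peaks with (blue) or without (grey) Rad21, ticks below are CNC peaks, and triangles are anchors pointing the way their motif reads. Acly, Srebf1, Elovl6 and Thrsp have no anchor in the window, and Dgat2 and Elovl6 have the most CNC peaks, 11 and 7.

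**Figure D2:**
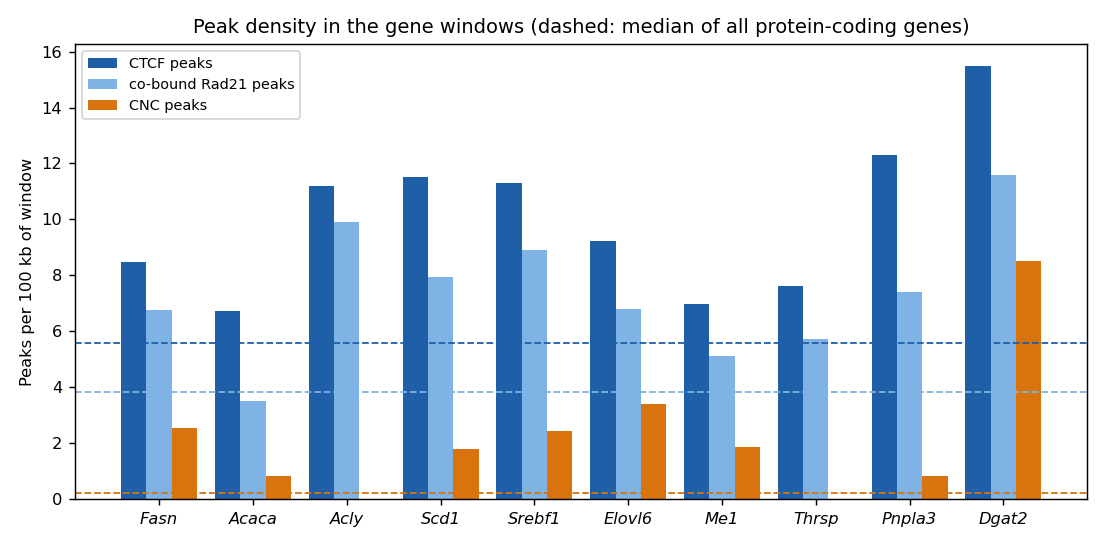
Peaks per 100 kb of window for each gene, with dashed lines at the medians of all protein-coding genes (5.58 CTCF, 3.82 co-bound and 0.216 CNC peaks per 100 kb). CTCF bars of all 10 genes stand above their line, and Acly and Thrsp have no CNC bar.

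How cohesin in these windows was split between sites with and without CTCF depended on which peaks were counted. Of the 145 Rad21 peaks, 111 were co-bound and 34 were CNC, a share of 23.4% (95% Wilson interval 17.3 to 31%, counting error only) against a background of 22.7% of all Rad21 peaks. With peaks of both factors limited to a deposited score of at least 100, the share was 32 of 96, or 33.3% (24.7 to 43.2%), against 15.5% of the whole list. Dgat2 and Elovl6 held 16 of these 32, and without both the share was 16 of 70, or 22.9%. In the other direction, 112 of the 156 CTCF peaks overlapped Rad21, or 71.8% (64.3 to 78.3%), against 67.3% of all CTCF peaks. The CTCF partners of the co-bound peaks were often weak. Sites of the class list are those found repeatedly among the livers. When no other CTCF peaks counted, 70 Rad21 peaks were left without CTCF, or 48.3% (40.3 to 56.3%), against 34.9% of the whole list. Dgat2 and Elovl6 carried this excess, with 20 of 26 and 16 of 21 such peaks. Without Dgat2 the share was 42%, without Elovl6 it was 43.5%, and without both it was 34 of 98, or 34.7%. In this count and under the score limit, both windows were taken out for their high shares, which must lower the rest. The whole list was not trimmed in this way, so the remaining shares cannot show that the other windows are ordinary.

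CNC peaks were unevenly spread over the pathway. At least 1 lay in the windows of 8 of the 10 genes, against 50.3% of all genes, and the windows without one were those of Acly and Thrsp. With peaks of both factors limited to a score of at least 100, Acly had 4 of 13 Rad21 peaks without CTCF and Thrsp 0 of 4. Without the limit, Dgat2 had 11 CNC peaks and Elovl6 had 7, together more than the remaining windows, which had 1 to 4 each. Their summits lay mostly in introns, 25 of 34 (73.5%, 56.9 to 85.4%), against 49.8% of all CNC peaks. The windows are centred on genes, and the shares in introns were also above the whole list for CTCF peaks (57.7% against 44.6%) and co-bound Rad21 peaks (53.2% against 41.3%). The nearest CTCF summit was a median of 2.32 kb away, against 3.59 kb in the whole list. A summit pileup of 37 fragments was the median of the 34 peaks, against 29 in the whole list, but their fold over the local background was lower, with a median of 2.95 against 3.35. The local background of these peaks, a median of 11 fragments against 7.42, was higher than in the whole list, and its part in both differences was not tested.

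All 10 genes had a CTCF peak and a co-bound Rad21 peak with a summit within 1 kb of an annotated start of a protein-coding transcript. Over all protein-coding genes the shares were 53.9% for CTCF, 51.3% for any Rad21 peak and 48.6% for co-bound Rad21. Of the other 36 genes of the pathway, 30 had a CTCF peak at a start and 32 a Rad21 peak. A CNC peak at a start was found at 2 of the 10 genes, Srebf1 and Elovl6, against 8.4% of all genes. The count was 1 with a start window of 500 bp or with the outermost start alone, against 5.99% and 6.88% of all genes, and 3 with a window of 2.5 kb, against 11.1%. Of the 34 CNC peaks, 2 lay within 1 kb of any protein-coding start (5.88%, 1.63 to 19.1%), against 12.6% of all CNC peaks. Some of these calls rest on weak CTCF peaks. With a deposited score of at least 100 asked of both factors, 8 genes kept a CTCF peak at a start, all but Elovl6 and Dgat2, against 48.8% of all genes. Under the same limit 4 genes, Srebf1, Elovl6, Me1 and Dgat2, had a Rad21 peak without CTCF at a start, against 5.6% of all genes, and 1 gene did where weaker CTCF peaks still counted, against 2.7%. Start peaks were not usually motif sites. Of 39 CTCF peaks within 1 kb of any protein-coding start in the windows, 14 held a motif match (35.9%, 22.7 to 51.6%), whereas 67 of 117 farther away did (57.3%, 48.2 to 65.9%); the shares over all peaks were 47.6% and 66.1%. A motif match is a score reached in 5% of sequences of the same length taken 2000 bp from the summits.

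**Figure D3:**
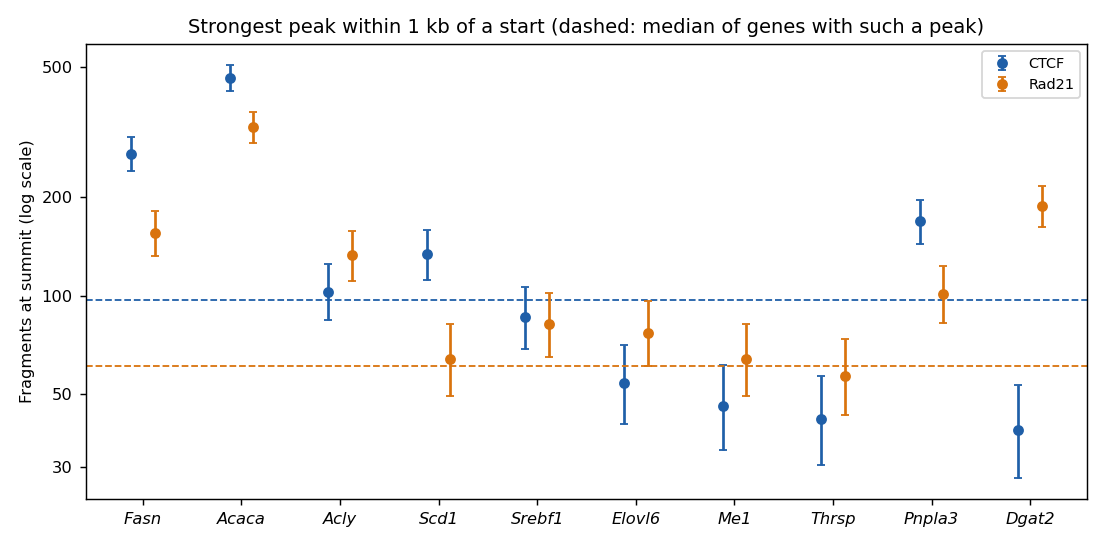
Fragments at the summit (log scale) of the strongest CTCF (blue) and Rad21 (orange) peak within 1 kb of a start of each gene, with exact 95% Poisson intervals for counting error. Dashed lines are the medians of genes with such a peak, 97 fragments for CTCF and 61 for Rad21, and Dgat2 combines the lowest CTCF value, 39, with a Rad21 value of 188.

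The genes differed in the ratio of the strongest Rad21 peak to the strongest CTCF peak at their starts. Both peaks were taken over all starts of a gene, and they need not lie at the same site. Genes with more starts have more peaks to choose from. The strongest CTCF peak at a start ranged from 39 fragments at Dgat2 to 464 at Acaca, with a median of 94.5 against 97 over all genes with such a peak. The strongest Rad21 peak ranged from 57 fragments at Thrsp to 327 at Acaca, with a median of 91.5 against 61. At the other genes of the pathway with such peaks the medians were 114 CTCF and 98.5 Rad21 fragments. The local Rad21 background was also higher over the windows, with a median of 11 fragments at Rad21 peaks against 8.1, and by fold over that background all Rad21 peaks of the windows were lower than the whole list, with a median of 4.08 against 4.93. The ratio of Rad21 to CTCF fragments depends on the depth of both pools and has a meaning only beside other genes. Its median was 1.12 at the 10 starts, 0.678 at 30 other genes of the pathway and 0.569 over the 10954 genes with both peaks. At Scd1, Fasn, Pnpla3 and Acaca the ratio was 0.478 to 0.705. It was 0.953 at Srebf1 and 1.29 to 1.43 at Acly, Thrsp, Me1 and Elovl6, values higher than at 79.7% and at 91.6 to 94% of genes. At Dgat2 it was 4.82, and 1 gene of the 10954 had a higher one. The ratio at Srebf1 counts peaks at protein-coding starts only. It leaves out a CTCF peak of 241 fragments, with Rad21 at 68, just upstream of the gene's outermost end. Counting that peak would lower the ratio. The ratio at Acaca comes from an anchor 49.8 kb inside the gene. At its outermost start, a CTCF peak of 161 fragments had Rad21 at 48, a lower ratio.

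Among the enzymes that make palmitate, Acly, the ATP citrate lyase, had 15 co-bound Rad21 peaks, no CNC peak and no anchor. With peaks of both factors limited to a score of at least 100, Acly had 4 of 13 Rad21 peaks without CTCF. At its start, a CTCF peak of 103 fragments lay 779 bp inside the gene, and a Rad21 peak, whose fragment count had an exact 95% interval of 111 to 158, lay 262 bp inside. The ratio of Rad21 to CTCF fragments was 1.29. A weaker pair, of 42 CTCF and 52 Rad21 fragments, lay just upstream. The strongest CTCF peak of the window, 515 fragments, lay at the start of the neighbouring gene Klhl11. The strongest Rad21 peak, 291 fragments, lay 42.6 kb upstream on a CTCF peak of 317 fragments.

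Me1, the cytosolic malic enzyme, had modest start peaks. The CTCF peaks had 34 and 46 fragments and the Rad21 peaks 47 and 64, all within 419 bp of the 5′ end. The stronger pair, of 46 and 64 fragments, lay 21 and 47 bp from the start of A330041J22Rik. The ratio of 1.39 at Me1 rests on this pair. The strongest CTCF peak of the Me1 window, 469 fragments, was an intra-TAD anchor near the 3′ end of Me1, 112 kb from the start. A second anchor of 283 fragments lay 123 kb from the start. Rad21 was low at both, at 87 and 44 fragments. The strongest Rad21 peak, 427 fragments, lay 49.3 kb upstream on a CTCF peak of 367 fragments that the authors did not class as an anchor. The 4 CNC peaks were all in introns, with 19 to 37 fragments.

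Acaca, the acetyl-CoA carboxylase, spans 272 kb and had 6 annotated starts. At its 5′ end, which lies close to that of Tada2a, a CTCF peak of 161 fragments lay 146 bp upstream, with Rad21 peaks of 48 and 23 fragments. The strongest binding lay 49.8 kb inside the gene at neighbouring internal starts. There a pair of intra-TAD anchors, 386 bp upstream of the nearest start and 84 bp downstream of another, had 464 and 255 CTCF fragments and 327 and 85 Rad21 fragments. Both motifs read in the direction of the gene, as the sequences above show. At another internal start, 62.3 kb inside, a lone CTCF peak of 73 fragments lay 98 bp upstream. The remaining intra-TAD anchor, 114 kb inside, had 462 CTCF and 108 Rad21 fragments and a motif in the opposite direction. Beyond the 3′ end, a TAD anchor 300 kb from the 5′ end had 350 CTCF and 265 Rad21 fragments. Another, 277 kb from the 5′ end, had 61 CTCF fragments, overlapped no Rad21 peak and carried none of the flags for Stag1, Stag2 and Top2b. The 3 CNC peaks had 19 to 39 fragments.

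The Acaca window, the longest at 372 kb, held 13 of the 44 CTCF peaks without Rad21, and 10 of these 13 had a motif match that differed by at most 1 base from the 14-base word GCCAGAAGAGGGCA. This word is the commonest form of the match at lone CTCF sites of the whole class list, and was chosen after the matches had been seen. B2 SINE repeats of the mouse are known to carry CTCF sites, and whether these matches lie in such repeats was not examined. The TAD anchor without Rad21 was among the 10. The lone CTCF sites inside Acaca that hold the word without a mismatch are shown with the match in capitals.
Acaca, CTCF peak 4.88 kb inside the gene, chr11:83948020-83948038, - strand: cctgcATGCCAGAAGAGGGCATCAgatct
Acaca, CTCF peak 87.5 kb inside the gene, chr11:84030642-84030660, + strand: catgaAGGCCAGAAGAGGGCATCAgatct
Acaca, CTCF peak 139 kb inside the gene, chr11:84081761-84081779, - strand: atcagAGGCCAGAAGAGGGCATAAgatct
Their summits had 85, 52 and 178 CTCF fragments. In all 10 windows, 16 of 44 CTCF peaks without Rad21 had the word (36.4%) and 7 of 112 with Rad21 (6.25%), against 18.6% and 7.16% in the whole list. Without Acaca the first share was 6 of 31, or 19.4%.

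Fasn, the fatty acid synthase, had the strongest CTCF site of the 10 windows. It lay outside annotated genes, 47.9 kb downstream of the 5′ end, with 1540 CTCF fragments (1464 to 1619) and 660 Rad21 fragments (611 to 712). A second intra-TAD anchor lay 24 kb from the 5′ end, 5.75 kb beyond the gene, with 603 CTCF and 214 Rad21 fragments. The motifs of both anchors read in the direction of Fasn. The start itself had a CTCF peak of 271 fragments centred 50 bp inside the gene, in a UTR exon, with Rad21 at 156 fragments, 245 bp inside. The CTCF value was higher than at 80% of genes with a start peak. The 3 CNC peaks had 24 to 29 fragments.

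Elovl6, the elongase, had many cohesin peaks on weak CTCF peaks or none. Of its 21 Rad21 peaks, 7 were CNC and a further 9 overlapped CTCF peaks that were not in the class list. The start had a CTCF peak of 54 fragments and a Rad21 peak of 77, both just upstream, and a CNC peak of 59 fragments 671 bp inside the gene. The strongest CNC peak by fragments, 65, lay 3.77 kb inside, with a fold of 2.79 and a score of 105. The others ran along the introns to 61 kb with 28 to 52 fragments. The one at 61 kb had the highest fold and score of the CNC peaks of this window, 4.46 and 168. The strongest CTCF site, 298 fragments with 172 of Rad21, lay 89.9 kb inside and was not an anchor. The nearest anchors on either side lay 110 and 107 kb from the gene.

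Scd1, the stearoyl-CoA desaturase, lay between strong anchors with motifs facing inward. The upstream anchor, 11.5 kb from the 5′ end, had 553 CTCF fragments (508 to 601) and 602 Rad21 fragments (555 to 652). The nearer downstream anchor, 34.5 kb from the 5′ end, had 341 CTCF and 413 Rad21 fragments. A farther one at 44.1 kb had 572 CTCF and 220 Rad21 fragments. The ratio of Rad21 to CTCF at the first and second of these was higher than at the other intra-TAD anchors of the 10 windows, and the median of the class over the whole list was 0.431. The inner pair enclosed 46 kb. Over all genes the nearest anchors enclosed a median of 233 kb, and 8.73% of genes had a shorter span than Scd1. The start had 3 CTCF peaks, of 134, 44 and 35 fragments, and Rad21 peaks of 64 and 36. Both CNC peaks lay between the upstream anchor and the start, with 64 and 62 fragments on a local background of 30.4 and 29.4.

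**Figure D4:**
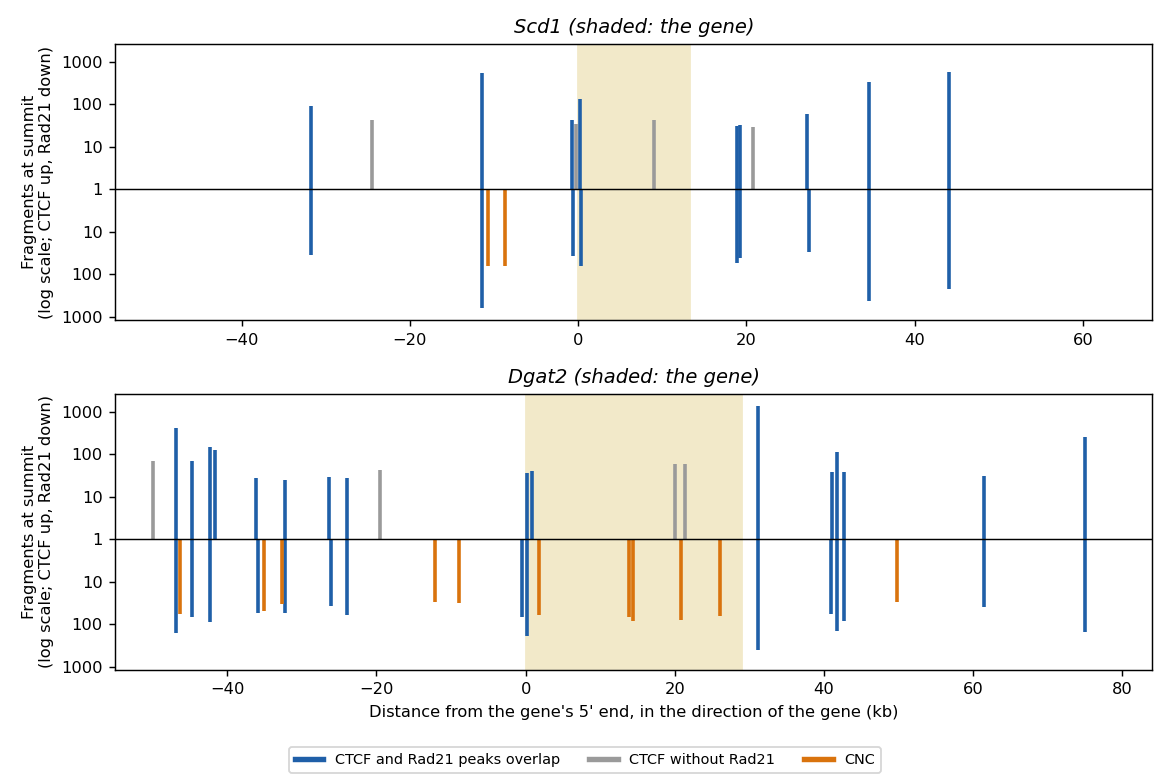
Fragments at the summit (log scale) of CTCF peaks (up) and Rad21 peaks (down) around Scd1 and Dgat2, by distance from the 5′ end in the direction of the gene (kb). At Scd1 the tall pairs stand at 11.5 kb upstream and at 34.5 and 44.1 kb downstream, whereas at Dgat2 CNC peaks (orange) of up to 86 fragments run through the gene.

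Dgat2, a diacylglycerol acyltransferase, stood apart by its cohesin. The window had 26 Rad21 peaks, of which 11 were CNC, and 8.52 CNC peaks per 100 kb was the highest density of the 10. The Rad21 peak at the start, 178 bp inside the gene, had 188 fragments (162 to 217), on CTCF peaks of 35 and 39 fragments that were not in the class list. A second Rad21 peak, of 68 fragments, lay 444 bp upstream. Neither CTCF peak held a motif match. Within the gene, CNC peaks stood 1.79, 13.8, 14.4, 20.8 and 26.1 kb from the 5′ end with 62, 68, 86, 82 and 63 fragments. The median local Rad21 background of the window, 21.3 fragments, was the highest of the 10, and it moves with these values. Whether it accounts for them was not tested. Just beyond the gene, 31.2 kb from the 5′ end, an intra-TAD anchor had 1339 CTCF (1268 to 1413) and 415 Rad21 fragments. Its motif read in the direction of the gene, and a TAD anchor 75 kb from the 5′ end, with 258 CTCF and 154 Rad21 fragments, read toward it.

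Pnpla3, a lipid droplet protein with lipase and acyltransferase activity, had a CTCF peak of 169 fragments 52 bp inside the gene, with Rad21 at 101 fragments. A weaker CTCF peak of 47 fragments lay 1.02 kb from the start, outside the 1 kb limit. The strongest site, an intra-TAD anchor with 634 CTCF and 217 Rad21 fragments, lay beyond the gene, in an intron of a neighbour, 44.5 kb from the 5′ end. Another anchor, with 104 CTCF and 85 Rad21 fragments, lay at the start of Samm50. Of the 16 anchors, this one had no motif match at the threshold used. A single CNC peak of 30 fragments was found.

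Of the regulators, Srebf1 had 4 annotated protein-coding starts and peaks at several of them. A CTCF peak of 241 fragments lay 0.422 kb upstream of the gene's outermost end, where no transcript annotated as protein-coding starts, with Rad21 at 68 fragments. At protein-coding starts, CTCF peaks of 86, 57 and 43 fragments were accompanied by Rad21 peaks of 82, 66 and 58, and a CNC peak of 65 fragments lay 313 bp upstream of an internal start. The strongest CNC peak by fragments, 69, lay 2.42 kb upstream of the gene, with a fold of 3.14 and a score of 138. By fold and score the strongest lay 18 kb upstream, at 4.53 and 177, with 54 fragments. The strongest CTCF site, 581 fragments with 251 of Rad21, lay in a UTR exon 22.8 kb from the 5′ end and was classed as other CAC. The nearest anchors on both sides were TAD anchors, 114 and 244 kb away, with motifs facing inward.

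Thrsp, the smallest of the genes at 4.79 kb, had the fewest peaks, 8 CTCF and 6 Rad21. Its start had a weak CTCF peak of 42 fragments, more than at 13.9% of genes with such a peak, and a Rad21 peak of 57 fragments, near the median of 61 over all genes. A CTCF site of 601 fragments with 391 of Rad21, classed as other CAC, lay 7.31 kb upstream, and a CTCF peak of 173 fragments with 28 of Rad21 lay 5.96 kb downstream of the 5′ end. Both motifs had the + strand, opposite to the gene. No CNC peak was found.

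Anchors were unevenly spread over the windows. Intra-TAD anchors lay in 6 windows, against 49.4% of all genes, and TAD anchors in those of Acaca and Dgat2, against 34.1% of all genes. Of the 95 class list sites, 13 were intra-TAD anchors (13.7%, 8.17 to 22%) and 3 were TAD anchors (3.16%, 1.08 to 8.88%), against 17.3% and 11.2% of the whole class list. Other CAC sites numbered 53 (55.8% against 51.4%) and lone CTCF sites 26 (27.4% against 20.1%). The 13 intra-TAD anchors had a median of 469 CTCF fragments against 339 for the class, whereas all 156 CTCF peaks of the windows had a median of 56 against 69 in the whole list. The class list flags overlap with Stag1 and Stag2, alternative subunits of cohesin, and with Top2b, a DNA topoisomerase. All 13 anchors had both cohesin flags, against 94.8% and 97.5% of the class, and 11 had the Top2b flag (84.6% against 77.6%). Across all class list sites of the windows the shares for Stag1, Stag2 and Top2b were 71.6%, 88.4% and 53.7%, against 70.6%, 88.1% and 54.8% of the whole list. The nearest anchors on either side of the gene, an arrangement examined after the peaks had been seen, had motifs facing inward by the deposited strands at 2 of the 10 genes, Scd1 and Srebf1, against 32.8% of the 21982 genes with an anchor on both sides. At Pnpla3 the call depends on the strand of the anchor at the start of Samm50, whose best match, below the threshold, lay on the strand opposite to the deposited one.

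**Figure D5:**
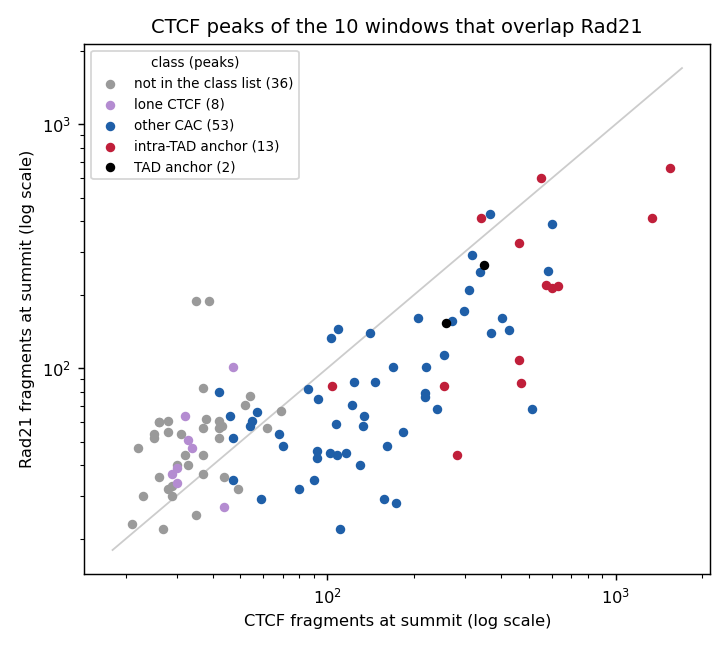
CTCF against Rad21 fragments at the summit (both log scales) for the 112 CTCF peaks of the windows that overlap Rad21, coloured by class, with a line of equal values. Intra-TAD anchors reach 1540 CTCF fragments, with Rad21 at 660, and the 36 peaks outside the class list lie mostly above the line, with a median ratio of 1.36. The classes depend in part on CTCF strength, the divisor of this ratio.

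The ratio of Rad21 to CTCF differed between the classes of sites, which were themselves set partly by CTCF. Intra-TAD anchors were picked by scores of CTCF and cohesin strength, and listed sites recur among the livers. The CTCF medians were 469 fragments at intra-TAD anchors and 32 at peaks outside the class list. A lower ratio at anchors can therefore follow from the classes, and no difference in cohesin is concluded. The median ratio of Rad21 to CTCF fragments at overlapping peaks was 0.355 at the intra-TAD anchors and 0.551 at other CAC sites, against 0.431 and 0.5 in the whole list. At the 2 TAD anchors with Rad21 it was 0.597 and 0.757, against a median of 0.411 for that class. It was 1.36 at the 36 peaks outside the class list, against 1.18 in the whole list. Over all 112 overlapping CTCF peaks it was 0.811 against 0.562. The Rad21 summit lay a median of 19 bp from the CTCF summit toward the 3′ end of the motif at the 55 peaks with a deposited strand, against 17 bp in the whole list.

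Short words of lipid and liver factors were searched on both strands of 200 bp around Rad21 summits. The word TCACNCCAC, one form of the site bound by SREBP, was found in 2 of 34 CNC peaks (5.88%, 1.63 to 19.1%) and in 0 of 111 co-bound peaks (Wilson upper bound 3.35%), against 0.959% of all CNC and 0.694% of all co-bound peaks. Both matches lay upstream of Dgat2, the farther one in an intron whose nearest protein-coding start was that of Mogat2, another acyltransferase of triglyceride synthesis. They are shown with the word in capitals.
Dgat2, CNC peak 8.98 kb upstream, chr7:106340187-106340195, + strand: ggttaaccTCACCCCACttgggacc
Dgat2, CNC peak 46.3 kb upstream, chr7:106377490-106377498, - strand: accacctcTCACCCCACtcctgtcc
Their summits had 32 and 58 fragments, with folds over the local background of 2.51 and 1.93 and scores of 41 and 38. Both were weak calls, since the 34 CNC peaks had a median fold of 2.95 and a median score of 53.5. The fold of 1.93 was the lowest among them. Neither peak would pass the score limit used above, so the share rests on weak peaks. The NF-Y word CCAAT was in 8 CNC peaks (23.5% against 23.1% of all CNC peaks) and in 29 co-bound peaks (26.1% against 19.5%). The E-box CACGTG, the FOXA word TGTTTAC and the HNF4A word CAAAGTCCA were each in 1 CNC peak, and the C/EBP word TTGCNNAA in 2, against 3.84%, 4.3%, 1.24% and 11.7% of all CNC peaks. The HNF4A match lay in an intron of Elovl6, 8 bp from a CNC summit of 32 fragments.
Elovl6, CNC peak 32.6 kb inside the gene, chr3:129267954-129267962, - strand: gcagagagCAAAGTCCAgagagcac
The words do not contain one another. They are matches of letters, and with 34 peaks a share moves by 2.94 percentage points for each peak.

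The rest of the pathway was followed with a list of 36 further genes, all of them annotated and listed by function. A CNC peak lay in 31 of their windows, against 50.3% of all genes, and an intra-TAD anchor in 31, against 49.4%. A CNC peak at a start was found at 6 of them, against 8.4% of all genes. Gpam, which starts glycerolipid synthesis, and Ppargc1b, a coactivator of SREBP-1, had 11 CNC peaks each, as many as Dgat2, and Elovl5, a further elongase, had 7. Anchors were most numerous at Acss2, an acetyl-CoA synthetase, with 7, and at Pnpla2, a triglyceride lipase, with 6. Motifs of the nearest anchors faced inward at 11 of the 36 genes, against 32.8% of all genes.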

How the data were processed

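ChIP-seq was made from male mouse liver with antibodies to CTCF (4 libraries) and Rad21 (3 libraries). By the methods of the study, reads were merged by factor, aligned to mm9 with Bowtie2 and kept where unique. The authors called peaks with MACS2 and removed blacklisted and duplicate-only peaks. The deposited lists give per peak a score (10 times the −log10 q-value), the fold of summit over local background as a ratio, and the p-value and q-value as −log10. The authors' class list adds a motif score and flags without a header, whose names rest on the column order in the study's own listing. Total reads per library were not analysed here.

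The members and lists were chosen with earlier results of these data known. Fragments at the summit were recovered from fold and −log10 p, as whole numbers (within 0.02) at 99.996% of CTCF and 99.997% of Rad21 peaks, and intervals cover counting error only. Fragments are not corrected for depth or for the absence of an input column, and strong neighbouring signal raises the local background. Genes, starts and exons came from GENCODE vM1, which leaves 22359 protein-coding genes outside the mitochondrial chromosome. A peak that overlapped a window by 1 bp was counted in it. The ratio at starts, the order of nearest anchors, the split by window of Rad21 peaks without class list sites and the 14-base word were added after the peaks had been seen. The named peaks are, per window, the strongest CTCF, co-bound and CNC peaks by fragments, those within 1 kb of a start and all anchors. Other peaks described at Thrsp, Pnpla3, Srebf1, Elovl6, Me1, Fasn, Scd1, Acaca and Dgat2, the sequence examples and neighbours' starts were chosen after their values were seen. Named were also, of other lipid genes the 3 with most CNC peaks and with most anchors, of which the last place, a tie, is not reported here. The CTCF motif was searched within 100 bp of each summit. Leaving out a library was not possible, since the lists are pooled. The calculations were tested on simulated data. Python 3.11.15, pandas 2.3.3, numpy 2.4.6, scipy 1.17.1 and pysam 0.24.0 were used. Alternatives to the window, the overlap rule, the score limit, the start window, the strength measure and the motif threshold were computed.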

Additional observations from a re-analysis of the deposited data

How the results depend on the processing

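No paired analysis was possible because each list is pooled over its libraries, and none was left out in turn for the same reason. Of 70 alternatives to 26 results, 43 stayed within 1.5 times the main count, or for a share within its interval, 23 moved and 4 reversed. The overlap rule moved CNC peaks from 34 (23.4%) to 61 (42.1%) with summits within 100 bp, to 54 (37.2%) with reciprocal overlap of 50% and to 70 (48.3%) against class list sites only. The shares of all Rad21 peaks under these rules were 36.8%, 33.7% and 34.9%. A deposited score of at least 100 left 99 CTCF and 96 Rad21 peaks and a CNC share of 33.3%, against 15.5% of the whole list. The limit left 8 genes with a CTCF peak at a start. It left 1 gene with a CNC peak at a start where weaker CTCF peaks still counted as overlap (2.7% of all genes), and 4 where they did not (5.6%), a setting chosen after seeing the data. A fold of at least 5 left 76 CTCF and 54 Rad21 peaks. A flank of 25 kb left 1 TAD anchor, and one of 100 kb gave 8 TAD and 25 intra-TAD anchors. With a start window of 500 bp, or the outermost start only, 1 gene had a CNC peak at a start, against 5.99% and 6.88% of all genes. At the stricter motif threshold, 30.1% of CTCF peaks had a match, against 39.4% of the whole list. Relative to the whole list, the median strength was 1.23 for Rad21 peaks and 1.28 for CNC peaks by fragments, but 0.902 and 0.823 by deposited score and 0.827 and 0.88 by fold over the local background. For CTCF peaks it was 0.812 by fragments, 0.573 by score and 0.724 by fold. In a search of 400 bp, the words were in 17 (NF-Y), 7 (C/EBP), 4 (FOXA), 3 (SREBP), 2 (E-box) and 1 (HNF4A) of the 34 CNC peaks, against 42.4%, 22%, 8.59%, 1.7%, 7.52% and 2.32% of all CNC peaks, and the SREBP word was in 2 of 111 co-bound peaks (1.8% against 1.42%). Pooled lists limit every value to counting error.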

Other observations

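Starts of neighbouring genes in the windows held CTCF and Rad21 peaks of their own. In the Acly window, Klhl11 had a CTCF peak of 515 fragments with 68 of Rad21, Ttc25 had 122 and 71, and Cnp had 52 and 71. Next to Dgat2, the start of Uvrag had CTCF peaks of 109 and 37 fragments and Rad21 peaks of 145 and 57. In the Fasn window, Dus1l, Gps1 and Rfng had 92, 70 and 55 CTCF fragments and 46, 48 and 61 Rad21 fragments. Beside Thrsp, the start of Ndufc2, which encodes a subunit of respiratory complex I, had 80 Rad21 fragments on a CTCF peak of 42.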
